A study of Homo sapiens with 20 samples.

Results

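Melanocyte lineage and pigmentation genes were followed across WM793, an established human melanoma cell line, and 4 lines made from it that overexpress NME1. The set of 35 genes was given by name, not by measured value, but was chosen with earlier results of these data known. It covers lineage transcription factors, melanin enzymes, melanosome proteins and transporters, receptors and other genes typical of melanocytes. Of these, 34 had a row on the Affymetrix exon arrays. In all, 14411 genes had a row of their own, and the 18384 features tested also include rows that name several genes. DCT, a melanin enzyme, had no row annotated to it, so it has no expression value here and enters only the promoter windows. For 26 members the row carried that gene alone. For the other 8 the row used named further genes too, so its value cannot be given to 1 gene: TYR (with TYRL), SLC24A5 (MYEF2), TRPM1 (MIR211), MC1R (TUBB3 and further tubulin genes), BCL2A1 (ST20), S100A1 (S100A13), CAPN3 (GANC) and FOXD3 (FOXD2). FOXD3 also had a row of its own, with a lower mean, whose line means are given below.

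The 5 groups are the unmodified line (Parent), a line overexpressing wild-type NME1 (NME1-wild-type), and lines overexpressing the NME1-E5A, NME1-K12Q or NME1-P96S mutant. All were grown for 3 days before total RNA was taken, and each has 4 arrays that the study calls technical replicates. The study's title names an expression signature tied to metastasis suppression by NME1, a nucleoside diphosphate kinase. Each construct is represented by 1 line, and the vector, its promoter and whether a line is 1 clone are not given in the sources used here. No empty-vector line is among the groups. The p-values below therefore measure only the spread between arrays, which may be technical, and not that between independently made lines. In bulk RNA, fewer cells of a type and less RNA per cell cannot be told apart.

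Melanocytes come from the neural crest. SOX10 and PAX3 switch on MITF, the master regulator of the lineage, which in turn drives genes for melanin enzymes and melanosome proteins. MC1R raises cyclic AMP and so MITF, while KIT and EDNRB carry signals needed for melanoblast survival and migration. Melanoma cells can keep this program or lose the pigment part of it while retaining neural crest factors. IRF4, better known from lymphocytes, works with MITF at the tyrosinase gene in melanocytes.

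Expression is given on the log2 scale, as RMA-normalised by the authors. Array medians lay between 6.27 and 6.50. The row annotated to NME1 and its readthrough transcript had line means of 9.53 in Parent, 9.81 in NME1-wild-type, 9.78 in NME1-E5A, 9.75 in NME1-K12Q and 9.78 in NME1-P96S. The gain of this row over Parent was thus small in each NME1 line. Parent arrays read up to 9.74 and overlapped with those of NME1-E5A (from 9.69), NME1-K12Q (from 9.45) and NME1-P96S (from 9.63). The lowest NME1-wild-type array read 9.75. The arrays differed in spread, with interquartile ranges from 2.19 to 3.16. The narrowest were replicate 2 of Parent, replicate 2 of NME1-K12Q and replicate 3 of NME1-P96S, and results are also given without these 3 arrays where that changes a call. Markers of keratinocytes (0 of 5 measured), leukocytes (0 of 4), fibroblasts (1 of 5, COL1A1) and endothelium (1 of 6, CLDN5) lay above the median row mean of 6.35. None of these markers passed in a comparison of lines.

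A level on this scale also depends on the probes, so levels are not ranked between genes. With that limit, the label of a melanoma line was met in part. MITF, SOX10, TYR, TYRP1, DCT, PMEL, MLANA and S100B were set as the lineage markers for this label. Of these, only SOX10 (mean above 9.3 in every line) and S100B exceeded the median row mean, and DCT had no row. PAX3, TFAP2A, SNAI2 and MCAM, outside that marker list, were also in the 21 members above that median. MITF and the classical pigment genes TYRP1, PMEL, MLANA, OCA2 and SLC45A2 were among the 13 members below it, as was the shared row of TYR.

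**Figure D1:**
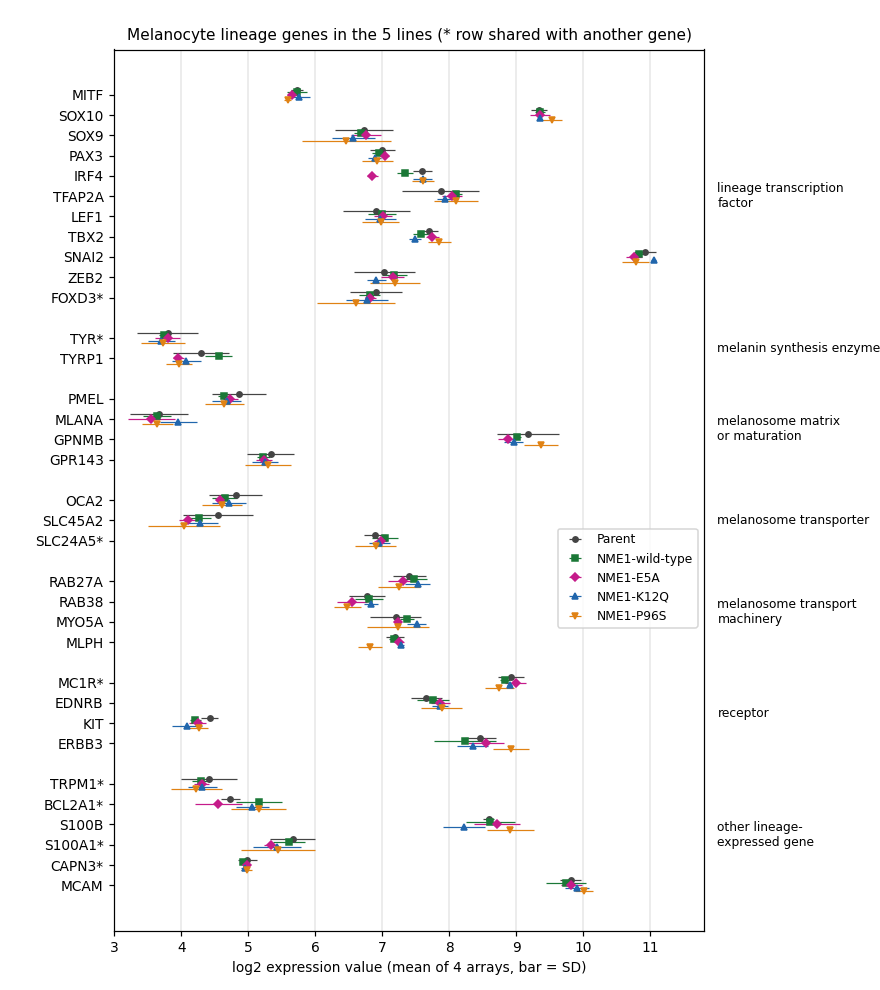
Mean log2 expression value of each of the 34 measured members in the 5 lines, with the SD over 4 arrays as bars, grouped by role; an asterisk marks a row shared with another gene. Line means of most members overlap within their SD, and the NME1-E5A mean of IRF4 (6.85) stands to the left of the other 4 (7.34 to 7.61).

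A single member was called between lines, and further members only under alternatives given below. To be called, a feature needed a 1.5-fold change or more and a limma adjusted p below 0.05. IRF4 was the 1 member of 34 called in any of the 10 pairs of lines, where 0.707% of all features were. IRF4, a transcription factor that acts beside MITF on the tyrosinase gene, was lower in NME1-E5A. A test for any difference over the 5 lines (limma's moderated F) likewise called IRF4 alone, at an adjusted p of 0.00308, while 0.582% of all features were called.

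IRF4 read 7.50, 7.46, 7.73 and 7.70 on Parent replicates 1 to 4, 7.23, 7.48, 7.40 and 7.26 in NME1-wild-type, and 6.88, 6.94, 6.82 and 6.77 in NME1-E5A. In NME1-K12Q it read 7.49, 7.80, 7.62 and 7.48, and in NME1-P96S 7.61, 7.84, 7.48 and 7.49. All 4 NME1-E5A arrays lay below every array of the other lines. Against Parent, 0.914% of all features were lower in NME1-E5A with no overlap. NME1-E5A was lower than Parent by a log2 difference of -0.75 (SE 0.115, limma adjusted p = 0.00354), from 7.60 ± 0.137 to 6.85 ± 0.0755 (SD, n = 4), or 0.596 of the Parent level. It was lower than NME1-K12Q by -0.75 (limma adjusted p = 0.00274) and than NME1-P96S by -0.76 (limma adjusted p = 0.00246). In these 3 comparisons IRF4 was the 1 called member of 34, against 0.218%, 0.169% and 0.239% of all features, of which 0.0762%, 0.0816% and 0.109% were lower in NME1-E5A. In order, the IRF4 line means were 7.61 in NME1-P96S, 7.60 in NME1-K12Q and in Parent, 7.34 in NME1-wild-type and 6.85 in NME1-E5A. The first 3 differed by at most 0.01. NME1-wild-type differed from Parent by -0.25 (SE 0.115, limma adjusted p = 0.997), with overlapping arrays. The wild-type arrays were all above those of NME1-E5A, at a difference of 0.49, yet this pair did not pass (limma adjusted p = 0.125). That difference is also under the 1.5-fold minimum. Without the 3 narrowest arrays it was again 0.49 (limma adjusted p = 0.0355), still under that minimum.

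The IRF4 call was kept when any 1 of the 20 arrays was left out, with differences from Parent between -0.79 and -0.70, and with the 3 narrowest arrays left out together. It ended in the comparisons with Parent (adjusted p = 0.109) and NME1-P96S (adjusted p = 0.0998) when only the 8 arrays compared were fitted, and in all 3 when limma's treat tested against the 1.5-fold minimum.

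**Figure D2:**
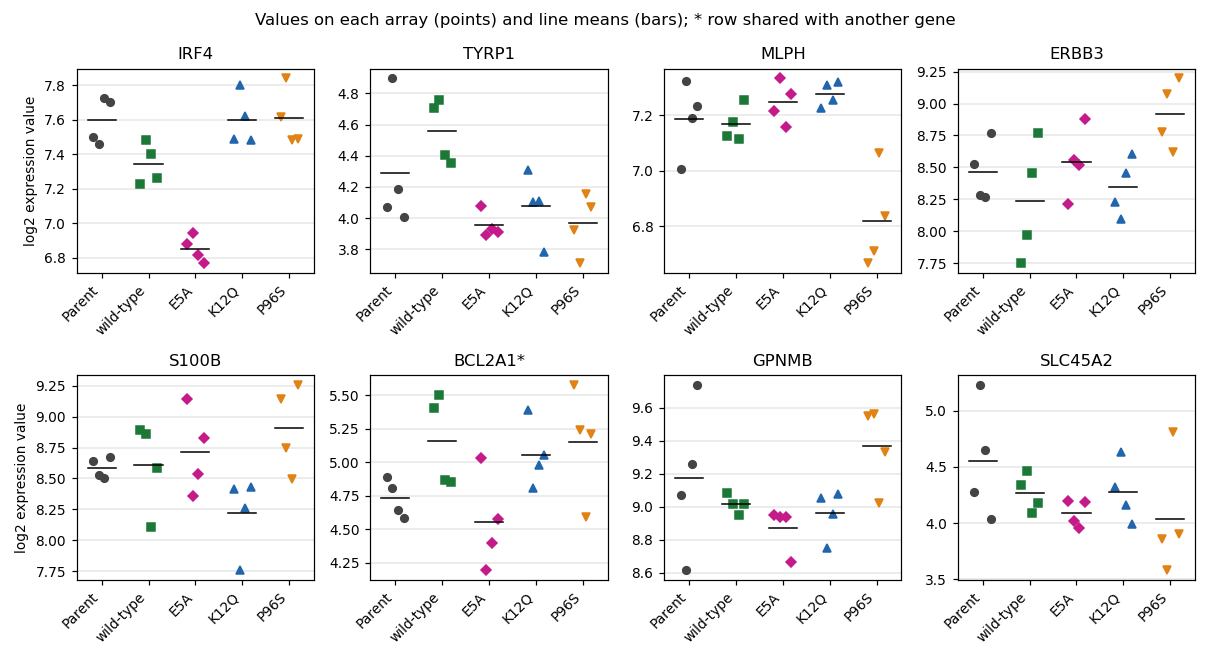
Log2 expression value on each array (points) and line mean (bars) for the 8 members with the largest range of line means; an asterisk marks a row shared with another gene. In the IRF4 panel the 4 NME1-E5A points, 6.77 to 6.94, lie below all others, whereas in the panels of ERBB3, S100B, BCL2A1 and SLC45A2 the points of most lines overlap.

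RefSeq promoter windows of assembly GRCh38.p14 were matched for 26 members (39 start sites), 7 of them on chromosome 15. The 250 bases before the start are shown for IRF4, the member that moved, with both matches to GCCNNNGGC in capitals, the letters of an AP-2 site such as TFAP2A binds:
IRF4 (chr6:391502-391751, plus strand): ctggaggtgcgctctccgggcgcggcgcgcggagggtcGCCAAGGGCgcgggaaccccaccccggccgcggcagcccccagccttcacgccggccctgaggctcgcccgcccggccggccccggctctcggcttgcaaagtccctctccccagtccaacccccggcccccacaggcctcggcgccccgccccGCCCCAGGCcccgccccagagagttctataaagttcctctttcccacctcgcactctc
This palindromic motif was in windows of 8 of the 26 members, against 23.0% of 27305 genes. Counted by window, it was in 20.5% of the members' 39 windows and 19.8% of all windows, so the shares were alike.

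CATGTG, searched on both strands, is the core of the M-box that MITF binds in pigment genes. It was found before a start of 12 of the 26 members, against 11.5% of all genes (by window, 33.3% of members' and 9.42% of all). These 12 were ZEB2, TYR, TYRP1, DCT, GPNMB, GPR143, OCA2, SLC24A5, MC1R, EDNRB, TRPM1 and BCL2A1. The windows of TYRP1, TYR and GPNMB are shown because each holds it 2 times, in capitals on either strand, and per-array values of these genes are given further on:
TYRP1 (chr9:12693135-12693384, plus strand): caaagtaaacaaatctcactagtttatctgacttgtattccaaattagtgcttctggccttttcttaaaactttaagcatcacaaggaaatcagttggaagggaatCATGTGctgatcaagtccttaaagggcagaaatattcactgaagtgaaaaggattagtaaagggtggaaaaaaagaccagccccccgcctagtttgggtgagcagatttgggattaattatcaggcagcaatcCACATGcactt
TYR (chr11:89177625-89177874, plus strand): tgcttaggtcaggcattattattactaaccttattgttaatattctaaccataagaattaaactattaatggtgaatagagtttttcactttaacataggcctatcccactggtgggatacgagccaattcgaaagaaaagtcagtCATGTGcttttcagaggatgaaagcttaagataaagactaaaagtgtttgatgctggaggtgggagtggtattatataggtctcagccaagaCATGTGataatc
GPNMB (chr7:23246525-23246774, plus strand): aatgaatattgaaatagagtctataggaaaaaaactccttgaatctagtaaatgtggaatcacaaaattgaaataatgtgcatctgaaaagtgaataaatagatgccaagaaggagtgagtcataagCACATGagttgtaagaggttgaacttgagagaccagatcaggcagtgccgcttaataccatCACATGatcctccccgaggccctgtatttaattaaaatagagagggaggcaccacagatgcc
CACGTG, the palindromic E-box that MITF can also bind, was found for FOXD3 and MLPH, against 7.73% of all genes. AACAAT on either strand, letters of a SOX site, was found for TYR, RAB27A and MLPH, against 10.9% of all genes. None of these motifs contains another. A match is a description of these letters and not a binding site.

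Lineage transcription factors other than IRF4 did not pass in any pair. MITF, which drives the pigment genes, read 5.62, 5.75, 5.71 and 5.83 in Parent and 5.68, 5.95, 5.61 and 5.66 in NME1-wild-type. It read 5.69, 5.72, 5.55 and 5.66 in NME1-E5A, 5.89, 5.54, 5.68 and 5.90 in NME1-K12Q, and 5.64, 5.59, 5.51 and 5.59 in NME1-P96S. The arrays of every pair of lines overlapped, and the range of the 5 line means was 0.17. SOX10, the neural crest factor upstream of MITF, read 9.28, 9.47, 9.20 and 9.39 in Parent and 9.26, 9.45, 9.35 and 9.36 in NME1-wild-type. Its values were 9.21, 9.23, 9.44 and 9.51 in NME1-E5A, 9.37, 9.32, 9.36 and 9.34 in NME1-K12Q, and 9.51, 9.33, 9.62 and 9.66 in NME1-P96S. SOX10 was highest on average in NME1-P96S (9.53 ± 0.148 against 9.34 ± 0.118 in Parent, n = 4), with overlapping arrays.

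PAX3, which acts with SOX10 on MITF, had line means between 6.88 and 7.04. LEF1, a mediator of Wnt signals, lay between 6.91 and 7.01, and TFAP2A, an AP-2 factor of the neural crest, between 7.87 and 8.10. Both had their lowest single array in Parent replicate 2, at 6.27 and 7.06. TBX2, a repressor of senescence genes that MITF regulates, had means from 7.48 in NME1-K12Q to 7.85 in NME1-P96S, whose arrays did not overlap (difference -0.36, SE 0.112, limma adjusted p = 0.419). SNAI2, which supports melanoblast migration, ranged from 10.76 in NME1-E5A to 11.05 in NME1-K12Q. All SNAI2 arrays of NME1-K12Q lay above those of the other 3 NME1 lines, without passing. ZEB2, a factor of the differentiated melanocyte, had means between 6.91 and 7.18. SOX9, a factor that can oppose SOX10, lay between 6.46 and 6.76, and the row of FOXD2 and FOXD3 between 6.61 and 6.91. The row annotated to FOXD3 alone, an early neural crest factor, had means between 6.53 and 6.79.

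SOX9, the FOXD2 and FOXD3 row and SLC45A2 varied with the spread of the arrays. On Parent replicate 2, the narrowest array, they read 7.27, 7.29 and 5.23, and on Parent replicate 4, the widest of that line, 6.22, 6.41 and 4.04. In NME1-P96S the narrow replicate 3 read 7.37, 7.39 and 4.81, against 5.86, 6.18 and 3.58 on replicate 2, the widest array of all. With the interquartile range as a covariate, the SE of a difference from Parent in NME1-P96S went from 0.259 to 0.115 for SOX9, from 0.231 to 0.0812 for FOXD3 and from 0.240 to 0.0935 for SLC45A2. The differences themselves went from -0.26 to 0.04, from -0.30 to -0.02 and from -0.51 to -0.23. Among the 13 members below the median row mean, Parent replicate 2 gave the highest value of its line for 10, NME1-K12Q replicate 2 for 10 and NME1-P96S replicate 3 for 9. The shares over all rows below that median were 76.9%, 67.3% and 74.3%. IRF4 in NME1-E5A differed from Parent by -0.76 with this covariate (limma adjusted p = 0.000181).

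**Figure D3:**
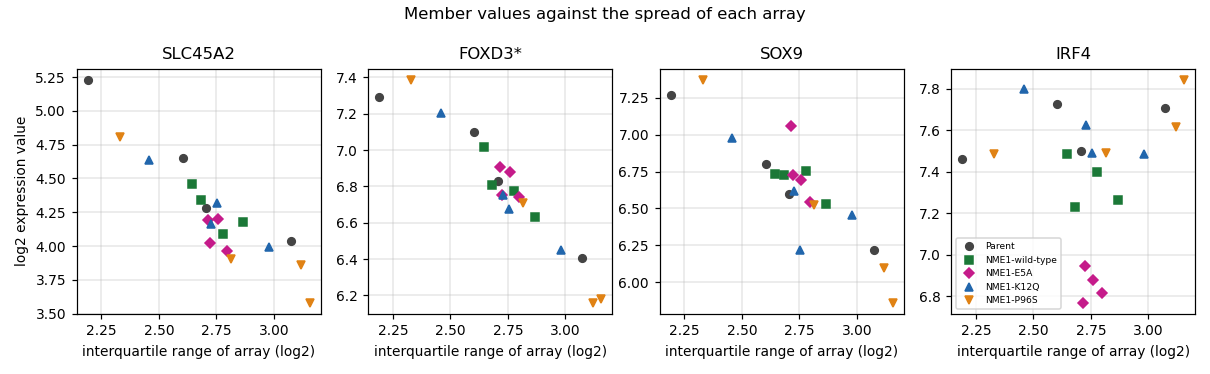
Log2 expression value of SLC45A2, the FOXD2 and FOXD3 row (FOXD3*), SOX9 and IRF4 on each array (vertical axis) against the interquartile range of that array in log2 units (horizontal axis), with lines by colour and marker. Narrow arrays read high and wide arrays low for the first 3, while the NME1-E5A points of IRF4 stand apart at interquartile ranges near those of the NME1-wild-type arrays.

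Neither melanin enzyme row passed in any pair. TYRP1, which oxidises an intermediate of eumelanin synthesis, read 4.07, 4.90, 4.19 and 4.01 in Parent and 4.71, 4.76, 4.40 and 4.36 in NME1-wild-type. It read 4.08, 3.89, 3.93 and 3.91 in NME1-E5A, 4.31, 4.10, 4.11 and 3.78 in NME1-K12Q, and 3.92, 3.71, 4.16 and 4.07 in NME1-P96S. Every NME1-wild-type array lay above every array of the 3 mutant lines, while Parent overlapped with all 4 lines. In single pairs, 1.48% (NME1-E5A), 0.674% (NME1-K12Q) and 0.914% (NME1-P96S) of features were higher in NME1-wild-type with no overlap. The share for all 3 together was not counted. TYRP1 averaged 4.17 over all arrays, below the median row mean of 6.35, so these are differences at a low level. NME1-wild-type was 0.60 above NME1-E5A (SE 0.172, limma adjusted p = 0.422), 0.48 above NME1-K12Q (limma adjusted p near 1.00) and 0.59 above NME1-P96S (limma adjusted p = 0.43). Against the mean of the mutants the difference was 0.56 (SE 0.141, limma adjusted p = 0.435), and against Parent it was 0.26 (limma adjusted p = 0.997). TYRP1 was called against NME1-E5A with quantile normalisation, with the interquartile range as a covariate (0.60, limma adjusted p = 0.0107) and without the 3 narrowest arrays (0.60, limma adjusted p = 0.0396). None of those arrays is of NME1-wild-type or NME1-E5A, so the difference was unchanged and only its SE fell, from 0.172 to 0.126. Without those arrays TYRP1 was also called against NME1-P96S (0.65, limma adjusted p = 0.0302).

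The row shared by TYR, the rate-limiting enzyme of melanin synthesis, and TYRL read 3.79, 4.44, 3.52 and 3.44 in Parent and 3.83, 3.74, 3.66 and 3.71 in NME1-wild-type. Its values were 3.95, 3.95, 3.70 and 3.57 in NME1-E5A, 3.69, 3.87, 3.82 and 3.41 in NME1-K12Q, and 3.47, 3.55, 4.20 and 3.67 in NME1-P96S. The line means spanned only 0.10, so this row did not follow TYRP1.

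Among melanosome proteins, PMEL forms the fibrils on which melanin settles. It read 4.67, 5.42, 4.85 and 4.49 in Parent and 4.58, 4.70, 4.53 and 4.71 in NME1-wild-type. In NME1-E5A PMEL read 4.88, 4.69, 4.61 and 4.74, in NME1-K12Q 4.63, 4.98, 4.61 and 4.48, and in NME1-P96S 4.48, 4.38, 5.04 and 4.67. The highest array of each of Parent, NME1-K12Q and NME1-P96S was the one of narrow spread. MLANA, a melanosome protein and antigen, read 3.52, 4.17, 3.82 and 3.17 in Parent and 3.84, 3.78, 3.38 and 3.54 in NME1-wild-type. MLANA read 3.85, 3.70, 3.60 and 3.04 in NME1-E5A, 3.65, 4.31, 4.03 and 3.84 in NME1-K12Q, and 3.66, 3.31, 3.87 and 3.72 in NME1-P96S. All lines overlapped.

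GPNMB, a glycoprotein of late melanosomes and lysosomes related to PMEL, read 9.07, 8.62, 9.26 and 9.74 in Parent and 9.08, 9.01, 8.95 and 9.02 in NME1-wild-type. It read 8.95, 8.94, 8.94 and 8.66 in NME1-E5A, 9.05, 8.75, 8.96 and 9.08 in NME1-K12Q, and 9.55, 9.56, 9.02 and 9.33 in NME1-P96S. The NME1-E5A arrays all lay below those of NME1-P96S (-0.49, SE 0.177, limma adjusted p = 0.655), while Parent spanned both. Without the 3 narrowest arrays this difference was -0.61 and was called (SE 0.133, limma adjusted p = 0.0248). GPR143, a melanosome receptor mutated in ocular albinism, had line means between 5.23 and 5.33.

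Of the transporters, SLC45A2, which sets melanosome pH, had its highest mean in Parent (4.55 ± 0.520) and its lowest in NME1-P96S (4.04 ± 0.532, n = 4 each). The 4 arrays of SLC45A2 read 4.28, 5.23, 4.65 and 4.04 in Parent, 4.34, 4.46, 4.09 and 4.18 in NME1-wild-type, and 4.20, 4.02, 3.96 and 4.19 in NME1-E5A. They read 4.32, 4.63, 4.16 and 4.00 in NME1-K12Q and 3.86, 3.58, 4.81 and 3.90 in NME1-P96S. All lines overlapped with Parent, and no difference of SLC45A2 passed. OCA2, a melanosomal anion channel, lay between 4.58 and 4.81. The row of MYEF2 and SLC24A5 that has the higher mean lay between 6.88 and 7.04, and the second row with both names between 3.91 and 4.02. Neither can be given to SLC24A5, a cation exchanger, alone.

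Melanosomes move along actin through a complex of RAB27A, MLPH and MYO5A, in which MLPH (melanophilin) links the GTPase to the motor. MLPH read 7.00, 7.32, 7.19 and 7.23 in Parent, 7.12, 7.18, 7.11 and 7.25 in NME1-wild-type, and 7.22, 7.33, 7.16 and 7.28 in NME1-E5A. It read 7.22, 7.31, 7.25 and 7.32 in NME1-K12Q and 6.67, 6.71, 7.06 and 6.84 in NME1-P96S. NME1-P96S was lowest, with 6.82 ± 0.177 against 7.19 ± 0.133 in Parent (n = 4), and its arrays overlapped only with Parent, whose lowest array read 7.00. The difference was 0.46 from NME1-K12Q (SE 0.105, limma adjusted p = 0.0769), 0.43 from NME1-E5A (adjusted p = 0.141), 0.35 from NME1-wild-type (adjusted p = 0.49) and -0.37 as NME1-P96S minus Parent (adjusted p = 0.633), by limma. None reached the 1.5-fold minimum. Without the 3 narrowest arrays the difference from NME1-K12Q was 0.53 (limma adjusted p = 0.0183) and that from NME1-E5A 0.51 (limma adjusted p = 0.0101), still under that minimum. RAB27A had means between 7.25 and 7.53 and MYO5A, the motor, between 7.20 and 7.51. RAB38, which delivers melanin enzymes to melanosomes, ranged from 6.48 in NME1-P96S to 6.83 in NME1-K12Q, with no overlap between these lines (difference 0.36, SE 0.15, limma adjusted p near 1.00).

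Of the receptors, ERBB3, a neuregulin receptor of neural crest cells, read 8.53, 8.28, 8.27 and 8.77 in Parent and 7.75, 7.97, 8.46 and 8.77 in NME1-wild-type. It read 8.21, 8.56, 8.52 and 8.88 in NME1-E5A, 8.23, 8.10, 8.45 and 8.61 in NME1-K12Q, and 8.77, 9.08, 8.62 and 9.20 in NME1-P96S. ERBB3 averaged highest in NME1-P96S, 0.45 above Parent (SE 0.205, limma adjusted p = 0.85) and 0.68 above NME1-wild-type (limma adjusted p = 0.486). Its arrays overlapped with those of every line except NME1-K12Q. EDNRB, the endothelin receptor, had means between 7.66 and 7.88 and KIT, the receptor for stem cell factor, between 4.08 in NME1-K12Q and 4.42 in Parent. The row with MC1R, the melanocortin receptor, and tubulin genes lay between 8.75 and 8.99.

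The remaining genes are lineage-typical without a role in pigment synthesis. S100B, a calcium-binding protein used as a melanoma marker, read 8.64, 8.53, 8.51 and 8.67 in Parent and 8.89, 8.86, 8.10 and 8.58 in NME1-wild-type. It read 9.14, 8.35, 8.54 and 8.83 in NME1-E5A, 8.42, 7.76, 8.26 and 8.43 in NME1-K12Q, and 9.15, 8.75, 8.49 and 9.26 in NME1-P96S. All S100B arrays of NME1-K12Q lay below those of Parent (-0.37, SE 0.208, limma adjusted p near 1.00) and of NME1-P96S (-0.69, limma adjusted p = 0.371). The row of BCL2A1, a survival gene that MITF regulates, and ST20 read 4.89, 4.81, 4.64 and 4.59 in Parent and 5.41, 5.50, 4.87 and 4.86 in NME1-wild-type. This row read 5.03, 4.20, 4.40 and 4.58 in NME1-E5A, 5.39, 4.81, 4.98 and 5.05 in NME1-K12Q, and 5.58, 5.24, 4.59 and 5.21 in NME1-P96S. It was lowest in NME1-E5A, 0.61 below NME1-wild-type (SE 0.21, limma adjusted p = 0.949), and every pair of lines overlapped. Against NME1-P96S it differed by -0.60 (limma adjusted p = 0.613), which without the 3 narrowest arrays became -0.79 and was called (limma adjusted p = 0.043). MCAM, an adhesion molecule, had means between 9.73 and 10.01. The row with TRPM1, a cation channel, lay between 4.22 and 4.41. CAPN3, a protease whose row also names GANC, lay between 4.92 and 4.99, and the S100A1 and S100A13 row between 5.34 and 5.66.

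The members' median signed difference stood close to that of all features in each comparison with Parent, and these comparisons share the 4 Parent arrays. Regardless of sign, the members' median size of difference was 0.0965 in NME1-wild-type, 0.103 in NME1-E5A, 0.116 in NME1-K12Q and 0.190 in NME1-P96S. Over all features these sizes were 0.107, 0.107, 0.0966 and 0.147. In NME1-wild-type 0 of 34 members were called, with 0.0326% of all features called. The members' median difference was -0.05, against -0.03 over all features, and 1 member (IRF4) had an unadjusted p under 0.05, where 1.38% of features did. In NME1-E5A the medians were -0.04 and -0.04, and 1 member had an unadjusted p under 0.05, where 2.98% of features did. NME1-K12Q had 0 called members, 0.00544% of features called, and medians of -0.06 and -0.05. There 1 member (KIT) had an unadjusted p under 0.05, against 1.48% of features. NME1-P96S had 0 called members, 0.103% of features called, and medians of -0.05 and -0.06. SLC45A2, MLPH and ERBB3 had an unadjusted p under 0.05 there, 3 of 34 against 3.14% of features. For the mean of the 4 NME1 lines against Parent, 0 members and 0.0109% of features were called, with 2 members (IRF4 and KIT) and 2.03% of features at an unadjusted p under 0.05.

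**Figure D4:**
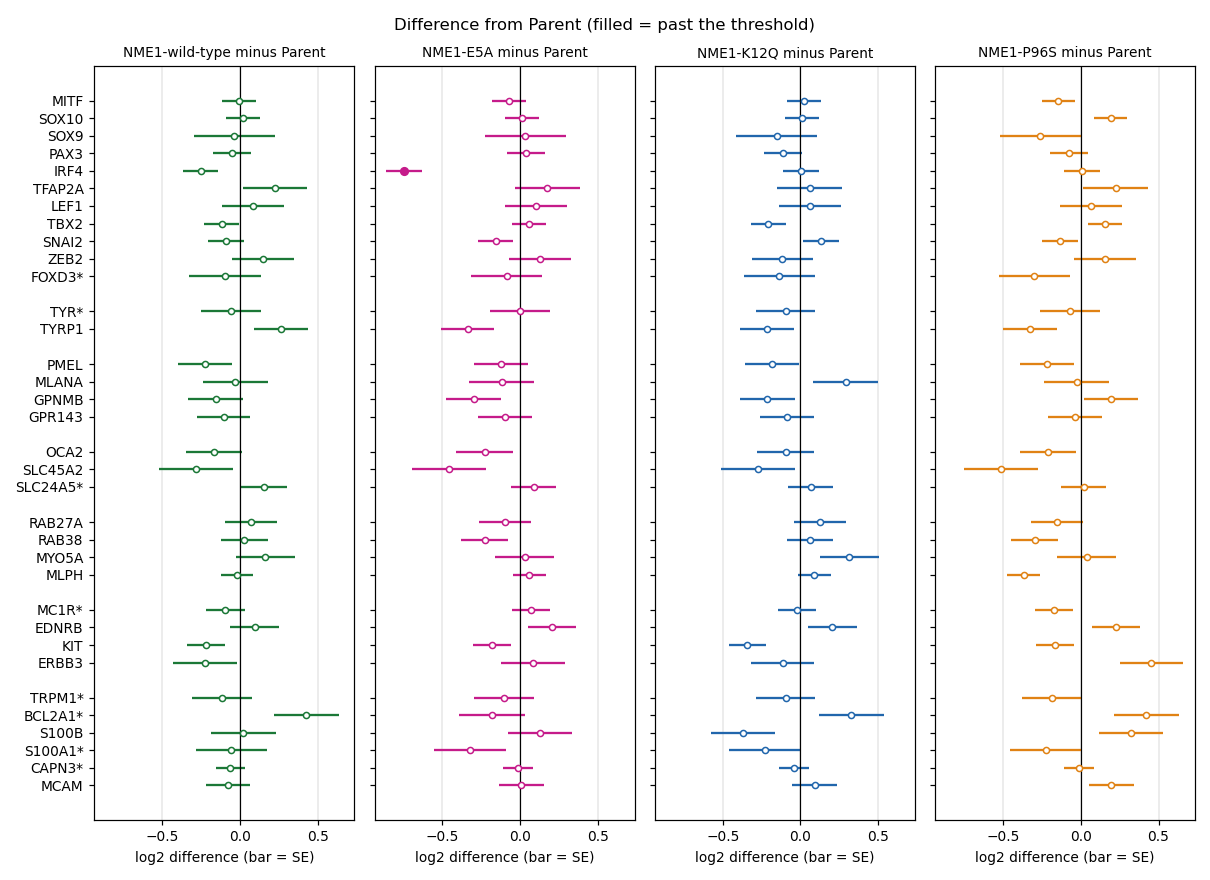
Log2 difference from Parent of each of the 34 members in the 4 NME1 lines, with the SE from the limma fit as bars; filled points passed the threshold and an asterisk marks a row shared with another gene. The 1 filled point is IRF4 in NME1-E5A at -0.75, and all others lie between -0.51 and 0.45.

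Between NME1 lines, the share of members with an unadjusted p under 0.05 exceeded that of all features in each pair, while IRF4 alone was called. The members were chosen with earlier results of these data known, so this excess cannot be read as a trait of the set. These pairs share arrays and members recur among them, IRF4 in every pair except NME1-K12Q against NME1-P96S. NME1-wild-type had 0 called members against NME1-E5A (0.207% of features called), NME1-K12Q (0.0381%), NME1-P96S (0.201%) and the mean of the mutants (0.0762%). At an unadjusted p under 0.05 these limma comparisons held 3, 2, 6 and 2 members, where 2.4%, 1.29%, 3.39% and 1.9% of features did. NME1-K12Q against NME1-P96S had 0 called members and 0.277% of features called. It held the most members at an unadjusted p under 0.05, 7 of 34 against 3.12% of features, namely TBX2, SNAI2, GPNMB, RAB38, MLPH, ERBB3 and S100B. The median size of the members' differences in this pair was 0.156, against 0.0957 over all features. Members also had the larger size in the other pairs of NME1 lines, except NME1-E5A against NME1-P96S (0.0766 against 0.0977). For NME1-wild-type against the mean of the mutants it was 0.0565 in members and 0.071 over all features. Compared with NME1-P96S, NME1-K12Q was higher in SNAI2, RAB38 and MLPH and lower in TBX2, GPNMB, ERBB3 and S100B. In this pair SNAI2, RAB38 and MLPH were higher in NME1-K12Q with no overlap of arrays, as were 1.22% of features, and TBX2, ERBB3 and S100B lower with no overlap, as were 1.01%. Against NME1-E5A, NME1-wild-type was higher with no overlap in IRF4, TYRP1 and GPNMB (1.48% of features). Against NME1-K12Q it was higher in TYRP1 (0.674%) and lower in SNAI2 (0.669%), and against NME1-P96S higher in TYRP1 and MLPH (0.914%). NME1-E5A was higher than NME1-K12Q with no overlap in TBX2 (1.85%) and lower in IRF4, SNAI2, RAB38 and MYO5A (1.69%). It was higher than NME1-P96S in MLPH (1.7%) and lower in IRF4 and GPNMB (1.31%). Against Parent, S100B was lower in NME1-K12Q with no overlap, as were 0.587% of features. NME1-E5A held 5 members at an unadjusted p under 0.05 against NME1-K12Q and 4 against NME1-P96S, where 2.79% and 4.11% of features did.

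Other genes of melanosome and MITF biology were read from lists of genes with rows of their own. Against Parent, 1 of them passed. Of 38 measured genes of melanosome biogenesis and trafficking, 0 were called against Parent in any line. RAB27B, a relative of RAB27A that also serves vesicle secretion, differed between NME1-K12Q (7.70 ± 0.324) and NME1-P96S (6.73 ± 0.496, n = 4) by 0.97 (limma adjusted p = 0.0308), a pair in which 0.277% of all features were called. CD63 and RAB7A, vesicle proteins with the highest means in that list, differed from Parent by at most 0.07 and 0.31. Of 14 measured transporter and copper genes, SLC7A11, a cystine and glutamate exchanger that affects pheomelanin, had means of 8.40 ± 0.469 in Parent and 7.10 ± 0.412 in NME1-P96S (n = 4). In NME1-P96S it was lower than in Parent by -1.30 (SE 0.219, limma adjusted p = 0.0155). It was 2.34 higher in NME1-K12Q than in NME1-P96S (limma adjusted p = 2.26e-05), with a mean of 9.43 ± 0.190 in NME1-K12Q. SLC7A11 was also called 1.77 higher in NME1-wild-type than in NME1-P96S (limma adjusted p = 0.000289) and 1.25 higher in NME1-E5A than in NME1-P96S (limma adjusted p = 0.00913). Between NME1-E5A and NME1-K12Q it differed by -1.09 (limma adjusted p = 0.0427). The shares of all features called in these 5 comparisons were 0.103%, 0.277%, 0.201%, 0.239% and 0.169%. ATP6V0D1, a proton pump subunit, and MFSD12, a lysosomal cysteine carrier, differed from Parent by -0.10 to 0.02 and by -0.11 to 0.05.

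Among 28 ligands and cyclic AMP components upstream of MITF, 0 were called in any pair, with GNAS at 0.06 to 0.12 and PRKAR1A at -0.03 to 0.08 against Parent. Of 24 MITF targets outside pigment synthesis, MET, the receptor for hepatocyte growth factor, was called. MET had means of 5.48 ± 0.0667 in NME1-E5A, 5.32 ± 0.103 in NME1-wild-type and 4.72 ± 0.147 in NME1-P96S (n = 4). NME1-P96S was lower than NME1-E5A by 0.76 (limma adjusted p = 0.00468) and than NME1-wild-type by 0.61 (limma adjusted p = 0.0428), but not called against Parent (-0.37, adjusted p = 0.85). In the 2 pairs with a call, 0.239% and 0.201% of all features were called. HIF1A and SCD differed from Parent by up to 0.33 and 0.24 in NME1-P96S. Of 25 further neural crest factors and 13 markers of the undifferentiated melanoma state, 0 were called in any pair. ETS1 differed from Parent by up to 0.14 and TFAP2C by up to 0.21, LOXL2 by up to 0.14 and TNC by up to 0.30. In the undifferentiated state list, 12 of 13 genes, among them AXL at a mean of 10.33, lay above the median row mean. Of 4 Schwann cell and glial markers 0 were called, and CDH19, at a mean of 7.56, was the 1 above that median.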

How the data were processed

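Per the submitters' processing notes and the design text, arrays were normalised in R with RMA. The authors deposited log2 expression values, 1 row for each of 18708 transcript clusters. The build, annotation release and RMA version are not given in the sources used here, and the notes name limma without a version. Platform annotation gave 1 symbol for 14735 rows, several for 2873 and none for 1100. Symbols were checked against RefSeq (0 updated). Where a gene had several rows, the row with the highest mean was used, leaving out 324 rows. No filter on low values was applied.

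limma 3.58.1 (R 4.3.3) was fitted with a mean for each line over all 20 arrays and 18384 features, with Benjamini-Hochberg adjustment within each of 12 comparisons, two-sided. It was tested on simulated data. Groups and replicate numbers came from sample titles. Arrays have no read depth, and their number limits the precision.

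Members and lists were chosen with earlier results of these data known. All members were named, with values of every array for those called, the 8 with the largest range of line means, MITF, SOX10, TYR, TYRP1, PMEL and MLANA. From each other list, up to 4 called members and the 2 of highest mean were named. AXL and the ranges of other markers were chosen after their values were seen.

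Alternatives covered normalisation, centring, array spread, array weights, the replicate number as a block, rows tested, a filter on dim rows, the spread estimate, the call rule, the arrays fitted and leaving out arrays.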

Additional observations from a re-analysis of the deposited data

Results flagged for a closer look

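IRF4 differed between mutant lines in direct contrasts of those lines, with Parent on neither side. NME1-E5A was lower than NME1-K12Q by a log2 difference of -0.75 (limma adjusted p = 0.00274) and lower than NME1-P96S by -0.76 (limma adjusted p = 0.00246).

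In 5 of 170 sets of 4 arrays, 1 array lay far from the other 3, where chance alone gives about 1 in 20. SOX9 read 6.53 on NME1-wild-type replicate 4, against 6.72 to 6.76 on the others. SNAI2 read 10.48 on NME1-P96S replicate 3, an array of narrow spread, against 10.85 to 10.91. GPNMB read 8.66 on NME1-E5A replicate 4, against 8.94 to 8.95. The row with MC1R and tubulin genes read 9.21 on Parent replicate 2, also of narrow spread, against 8.81 to 8.84, and 8.95 on NME1-K12Q replicate 4, against 8.88 to 8.89.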

How the results depend on the processing

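Of the recomputed counts of called members, 392 equalled the original count and 19 did not. Each original count was 0 or 1, and counts that stayed at 0 are among the 392. When each of the 20 arrays was left out in turn, the lowest and highest counts were 1 and 1 for NME1-E5A against Parent, NME1-K12Q and NME1-P96S and for any difference over the lines, and 0 and 0 for the other comparisons. Fitting only the arrays compared gave 0 members for NME1-E5A against Parent and against NME1-P96S. Treat gave 0 members for NME1-E5A against Parent, NME1-K12Q and NME1-P96S. Quantile normalisation gave 1 for NME1-wild-type against NME1-E5A (TYRP1) and 2 for any difference (IRF4 and TYRP1). With the interquartile range as a covariate these were 1 (TYRP1) and 5 (IRF4, TBX2, TYRP1, GPNMB and MLPH). Without the 3 narrowest arrays the counts were 1 for NME1-wild-type against NME1-E5A and 1 against NME1-P96S (TYRP1 in both), 3 for NME1-E5A against NME1-P96S (IRF4, GPNMB and BCL2A1) and 2 for any difference (IRF4 and MLPH). Array weights gave 5 for NME1-P96S against Parent (SOX9, FOXD3, SLC45A2, ERBB3 and BCL2A1), where 1639 features in all were called against 19 without weights. They also gave 1 for NME1-wild-type against NME1-P96S, 2 for NME1-E5A against NME1-K12Q, 4 for NME1-E5A against NME1-P96S, 1 for NME1-K12Q against NME1-P96S and 7 for any difference. Apart from array weights in NME1-P96S against Parent, the number of all features called under each alternative is not given here. These member counts therefore cannot be told apart from a general change in calls. The cause of these shifts was not tested.

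With the replicate number as a block, the counts of called members were 1 for NME1-E5A against Parent, NME1-K12Q and NME1-P96S and for any difference, and 0 elsewhere. The labels do not say what a shared number stands for. Deviations from the line means correlated at 0.11 to 0.60 (median 0.50) among the replicate 1 arrays, with medians of 0.03, 0.10 and 0.33 for replicates 2, 3 and 4 and of -0.05 for different numbers. For replicates 2 to 4 some pairs were below 0, down to -0.85, so pairing over every number was not met. The best correlation was with the array's own number for 11 of 20 arrays, a hint from the data and not from the design. Array spread moved with several members, SOX9, FOXD3 and SLC45A2 among them, and MITF and BCL2A1 did not read highest on the narrow arrays.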
